A study of Mus musculus with 2 samples.

Results

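The early response of 7 transcription factor genes, Nfil3, Batf3, Myc, Klf4, Klf2, Klf6 and Bhlhe40, to interleukin-4 (IL-4) was examined by global run-on sequencing (GRO-seq), which maps RNA polymerases that are engaged in transcription. The 7 genes were chosen by name, from a proposal made with the control-against-IL-4 contrast of these same files in view, and each transcript assigned to one of these names in either library was taken. They make up 7 of the 11054 gene names in the files, with 19 of 43122 transcripts in the control library and 53 of 51365 in the IL-4 library.

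Bone marrow-derived macrophages (BMDMs) were grown from wild-type C57BL/6 mice of 8–12 weeks for 6 days in medium with L929 cell supernatant, a source of macrophage growth factor. One set of cells was left untreated (control) and the other received 20 ng/ml IL-4 for 1 hr. Each condition is 1 library made from pooled run-on duplicates, so there are no replicates, no test was possible, and no difference below is set against a replicate error. A level could come from the condition or from that library, and these cannot be told apart. Likewise, fewer cells with an active gene and fewer polymerases per cell cannot be told apart in bulk cells.

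In both libraries, 12 of 12 macrophage marker genes had transcripts on their own strand. Of 36 markers of T cells, B cells, fibroblasts, neutrophils, dendritic cells and erythroid cells, 2 had such transcripts in each library, all neutrophil genes. These were S100a8 and Mpo in the control and S100a8 and S100a9 after IL-4, while Ly6g, Elane and Camp had none in either. The IL-4 library held more and longer transcripts with lower scores: median length was 312 bp against 227 bp in the control, and median score was 0.2 against 0.3. The transcripts of the 7 factors differed in the same direction, with a median length of 409 bp against 199 bp and a median score of 0.2 against 0.3. The part of these library differences in the values below was not tested, and the read depth of either library is unknown.

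IL-4 binds its receptor on macrophages and activates the transcription factor STAT6, which enters the nucleus and switches target genes on or off without need of new protein synthesis. Some of those targets encode transcription factors themselves, which can pass the signal on to later genes. The 7 factors fall into 3 DNA-binding classes. NFIL3 and BATF3 are basic leucine zipper proteins, MYC and BHLHE40 have a basic helix-loop-helix domain, and the KLF proteins bind GC-rich promoters through zinc fingers.

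The promoters of the factors are shown because the GRO-seq transcripts of Nfil3, Klf2, Klf4 and Klf6 begin in or next to these windows. RefSeq promoters were matched for 5 of the 7 genes, and Myc and Bhlhe40 were not matched. Each window runs 5′ to 3′ on the strand of the gene, from 250 bases before the RefSeq start up to the last base before the RefSeq or GENCODE start, whichever comes first (build GRCm38.p6, the mm10 build of the files). Capitals mark the E-box CACGTG, the letters that MYC and BHLHE40 bind, and the GC box GGGCGG, the letters that SP and KLF proteins bind, on either strand. Overlapping GC boxes were counted separately.
Nfil3 chr13:52981074-52981289, minus strand: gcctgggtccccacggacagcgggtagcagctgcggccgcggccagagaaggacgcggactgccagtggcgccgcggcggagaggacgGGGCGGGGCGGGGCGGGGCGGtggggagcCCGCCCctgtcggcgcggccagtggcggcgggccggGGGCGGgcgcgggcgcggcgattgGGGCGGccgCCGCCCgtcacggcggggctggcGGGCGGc
Klf4 chr4:55532476-55532725, minus strand: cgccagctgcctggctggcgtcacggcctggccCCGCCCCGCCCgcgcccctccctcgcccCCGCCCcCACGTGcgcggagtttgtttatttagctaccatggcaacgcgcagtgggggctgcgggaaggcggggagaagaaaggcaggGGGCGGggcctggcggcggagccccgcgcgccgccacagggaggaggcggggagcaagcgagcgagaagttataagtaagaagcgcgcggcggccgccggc
Klf2 chr8:72318812-72319032, plus strand: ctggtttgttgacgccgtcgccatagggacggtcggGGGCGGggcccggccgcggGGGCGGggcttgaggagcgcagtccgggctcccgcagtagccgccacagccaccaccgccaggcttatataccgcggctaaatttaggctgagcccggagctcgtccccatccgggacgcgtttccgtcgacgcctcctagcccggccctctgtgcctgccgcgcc
Klf6 chr13:5861239-5861481, plus strand: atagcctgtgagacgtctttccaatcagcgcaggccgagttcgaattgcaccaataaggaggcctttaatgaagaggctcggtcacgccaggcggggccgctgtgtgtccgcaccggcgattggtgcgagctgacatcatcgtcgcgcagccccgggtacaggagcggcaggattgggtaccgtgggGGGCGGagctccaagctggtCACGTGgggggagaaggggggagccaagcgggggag

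In the 250 bases before the RefSeq start, the GC box was found in all 5 matched promoters, with 9 copies in Nfil3, 5 in Batf3, 4 in Klf4, 2 in Klf2 and 1 in Klf6. The 250 bases of Batf3 lie wholly inside its GENCODE gene, so no sequence is printed for it and its matches lie within that gene. Among the 32544 mouse promoters of the same length, 33% held a GC box. The E-box lay in 3 of the 5 promoters, at position −247 of Batf3, −182 of Klf4 and −43 of Klf6 from the RefSeq start, against 6.03% of all promoters. The spacing that STAT6 prefers, TTCNNNNGAA, was in none of the 5 windows and in 5.89% of all promoters. The shorter STAT spacing TTCNNNGAA occurred at −239 of Batf3 and in 7.04% of all promoters. Klf6 held 4 CCAAT boxes and Nfil3 held 1, against 33.8% of promoters with any. The cyclic AMP element TGACGTCA, the AP-1 site TGACTCA and the D-box TTACGTAA that NFIL3 binds were in none of the 5 and in 1.55%, 4.46% and 0.114% of all promoters. A match describes letters in the window and is not a measured binding site.

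The factors separated by where their transcripts lay relative to the gene. On the strand of the gene and within its GENCODE bounds, there were 8 transcripts in the control and 32 after IL-4. On the opposite strand with a 5′ end within 1000 bp of the gene start, there were 4 in the control and 6 after IL-4. A transcript of the other library overlapped on the same strand 14 of the 19 control transcripts (73.7%), and 14 of the 53 IL-4 transcripts (26.4%). Over all transcripts, the share with such an overlap was 62.6% in the control library and 51.9% in the IL-4 library. Of the IL-4 transcripts without such an overlap, 13 belonged to Nfil3, 19 to Batf3 and 4 to Myc. No overlap was found for 4 of 4 transcripts of Myc and 13 of 14 of Nfil3, beside 48.1% of all IL-4 transcripts. These counts come from the contrast by which the factors were proposed and describe it.

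Own-strand transcripts inside the gene were called after IL-4 alone for Nfil3, Batf3 and Myc, in both libraries for Klf2 and Klf6, and in neither for Klf4 and Bhlhe40. Genes with own-strand transcripts after IL-4 only made up 11.9% of the 8928 genes with any, and those in the control only 7.55%. The genes were proposed as IL-4 responsive from this same contrast, so the calls at Nfil3, Batf3 and Myc are a description and give that name no support. For the other 4 genes, own-strand transcripts were called in both libraries or in neither. On either strand, a transcript carried the name after IL-4 only for Myc and Bhlhe40 and for no factor in the control only, beside 11.1% and 8.58% of all 11054 names. The 3 genes with calls after IL-4 only had 11, 10 and 4 own-strand transcripts in that library. A count as high as that of Myc was reached by 0.56% of the 8928 genes among those with calls after IL-4 only, and by 0.358% among those with calls in the control only. No transcript called means less than the caller detected at this unknown depth, so no fold change is given for these 3 genes.

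A gene-strand signal was computed as the score times the overlapped bases, summed over own-strand transcripts within the gene. Among the 1058 genes with own-strand transcripts after IL-4 only, Nfil3 was 3rd by this signal, Batf3 7th and Myc 33rd. Per base of gene, the same genes were 9th, 19th and 27th. The 10 leading genes by signal also held Cish, a feedback inhibitor of cytokine signalling, Egr2, a zinc-finger transcription factor, and Irf4, a partner of BATF proteins on DNA, all 3 picked for mention after their values were seen. Transcripts carrying the name Irf4 were also called in the control, with a highest score of 1.7. First by signal was mt-Nd1, from 1 transcript over 137 bp, and St7, Zc3h12c, Uck2 and Chd7 were also among the 10. These ranks describe the contrast by which the factors were proposed and are no independent evidence.

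Nfil3 (ENSMUSG00000056749.7) encodes a repressor that competes with PAR leucine zipper activators for their DNA sites. It spans 13865 bp on the minus strand of chromosome 13, 52967209–52981073. In the control, no own-strand transcript was called in the gene. After IL-4, 11 were called, with scores from 0.1 to 0.7 and a median of 0.3. They covered 5351 bp, or 38.6% of the gene, and their signal was 1919.7, with a range of 1652 to 2187 from the rounding of scores to 1 decimal. The transcripts were thus spread along the gene and not limited to its start.

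The Nfil3 transcript nearest the start had the highest own-strand score, 0.7, over 52979751–52980751 in intron 1, from 322 to 1322 bp past the gene start. The next highest, 0.5, lay in the same intron at 52974411–52974872. The last in the gene, at 52967714–52968346 in exon 2, scored 0.3. After the annotated end, 2 further minus-strand transcripts with scores of 0.2 and 0.3 carried the signal 3976 bp past the gene, and neither had a counterpart in the control. Own-strand transcripts after IL-4 therefore reached from intron 1 to beyond the 3′ end of Nfil3.

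Upstream of Nfil3, a plus-strand transcript leading away from the gene was called in both libraries. In the control it covered 162 bp (52981251–52981412) with a score of 0.3, and after IL-4 it covered 1051 bp (52981235–52982285) with a score of 1.2. Its 5′ ends, at −178 in the control and −162 after IL-4 from the gene start, fall within the GC box-rich promoter printed above. This was the only Nfil3 feature called in both libraries, and the highest score of the gene in each.

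**Figure D1:**
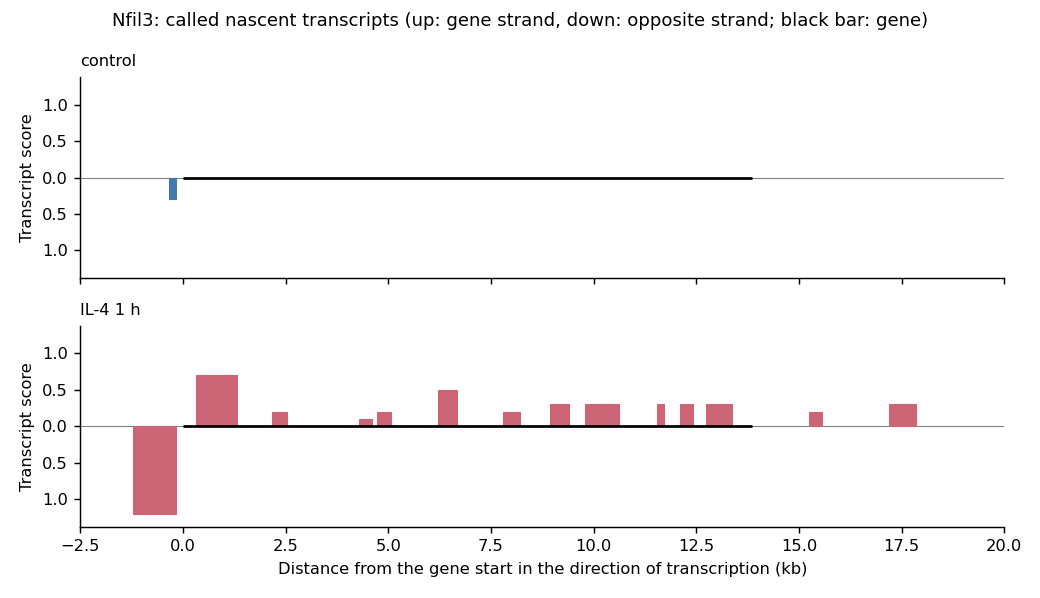
GRO-seq transcripts around Nfil3, with distance from the gene start in kb on the x axis and the score in its deposited units on the y axis, drawn upward for the strand of the gene and downward for the opposite strand, for the control and the IL-4 library (1 library each). The IL-4 library shows 11 own-strand transcripts in the gene and the control none, while the opposite-strand transcript at the start scored 0.3 in the control and 1.2 after IL-4.

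Batf3 (ENSMUSG00000026630.9) encodes a small leucine zipper factor that pairs with JUN proteins and is known for its need in one dendritic cell lineage. It spans 11099 bp on the plus strand of chromosome 1, 191097847–191108945. The control held no own-strand transcript in the gene. The IL-4 library held 10, with scores of 0.1 or 0.2, covering 4966 bp or 44.7% of the gene. Their signal was 866, with a rounding range of 618 to 1115. The scores were low and even, from the first transcript at 191097879–191098362 to the last, in exon 3, at 191108264–191108883.

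At the start of Batf3, a minus-strand transcript was called in both libraries. In the control it lay at 191098048–191098231 with a score of 0.2, and after IL-4 at 191097856–191098234 with a score of 0.3. The 5′ end after IL-4 is 180 bp before the RefSeq start of Batf3, which lies 567 bp inside the GENCODE gene. After IL-4, minus-strand transcripts with scores of 0.1 or 0.2 continued upstream to position −6865 from the gene start. None of these was called in the control.

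Farther upstream, a pair of transcripts on opposite strands lay upstream of Batf3. On the plus strand it began at −12127 bp in the control and −12137 bp after IL-4. The plus-strand score was 0.2 over 199 bp in the control and 0.4 over 753 bp (191085710–191086462) after IL-4. On the minus strand, no transcript was called in the control and one of 688 bp with a score of 0.3 (191085036–191085723) after IL-4. The plus-strand transcript lies inside the 3′ part of Nsl1 and on its strand, so it could belong to either gene. Such pairs are seen at promoters and at active enhancers, and these files alone do not tell which was measured.

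The highest score that carries the name Batf3, 1.7 in the control and 1.8 after IL-4, came from neither gene nor promoter. It belonged to a plus-strand transcript 23156 bp past the gene start, at 191121003–191121171 in the control, annotated as a ribosomal RNA repeat (LSU-rRNA). The highest score under a gene name thus hides the own-strand change at Batf3.

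Myc (ENSMUSG00000022346.15) encodes a driver of growth and proliferation whose transcripts and protein turn over fast. It spans 4984 bp on the plus strand of chromosome 15, 61985391–61990374. No transcript of any kind carried its name in the control. After IL-4 there were 4, all on the own strand within the gene. The score was 0.4 at 61985482–61985809 in the 5′ UTR, 0.2 at 61986866–61987265 and at 61987520–61987860, and 0.1 at 61988593–61988951. They covered 1428 bp, or 28.7% of the gene, with a signal of 315 and a rounding range of 243.9 to 387. Scores were highest at the start of Myc, and no opposite-strand transcript was called there in either library.

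Klf6 (ENSMUSG00000000078.7) encodes a zinc-finger activator present in many cell types, and it was the factor with the most transcripts in the control. It spans 8913 bp on the plus strand of chromosome 13, 5861482–5870394. Own-strand transcripts in the gene numbered 7 in the control and 6 after IL-4, and covered 27.5% and 35.5% of it. The signal was 1029.7 in the control (rounding range 907 to 1152) and 1289 after IL-4 (1131 to 1447). After centring on the median gene the log2 ratio was 0.21, with a rounding range of −0.15 to 0.56. The 2 libraries did not differ beyond rounding at Klf6 on this measure.

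Within Klf6, the first transcript scored 1.2 in the control (5861544–5862035) and 1.1 after IL-4 (5861524–5862293). Over the first 500 bp the signal was 526 and 503.8, and over the rest of the gene 504 and 785. In intron 1, the IL-4 library had 2 transcripts with scores of 0.2, reaching 2238 bp past the start, where the control had 1 with a score of 0.1, reaching 1197 bp. In the 3′ UTR the scores, not centred, were 0.2, 0.3 and 0.1 after IL-4 against 0.3, 0.5 and 0.2 in the control. The same transcripts covered 223, 362 and 776 bp after IL-4 and 114, 365 and 357 bp in the control, so the scores alone give no direction. The control alone had transcripts in the middle of the gene, from 3264 to 3785 bp and from 4823 to 5213 bp past the start, with scores of 0.1 and 0.2. The calls in Klf6 thus differed in place between the libraries, while the summed signal did not differ beyond rounding. On the opposite strand, the promoter transcript scored 1.4 over 363 bp in the control and 1.8 over 510 bp after IL-4, with 5′ ends at −290 and −291 bp from the gene start.

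**Figure D2:**
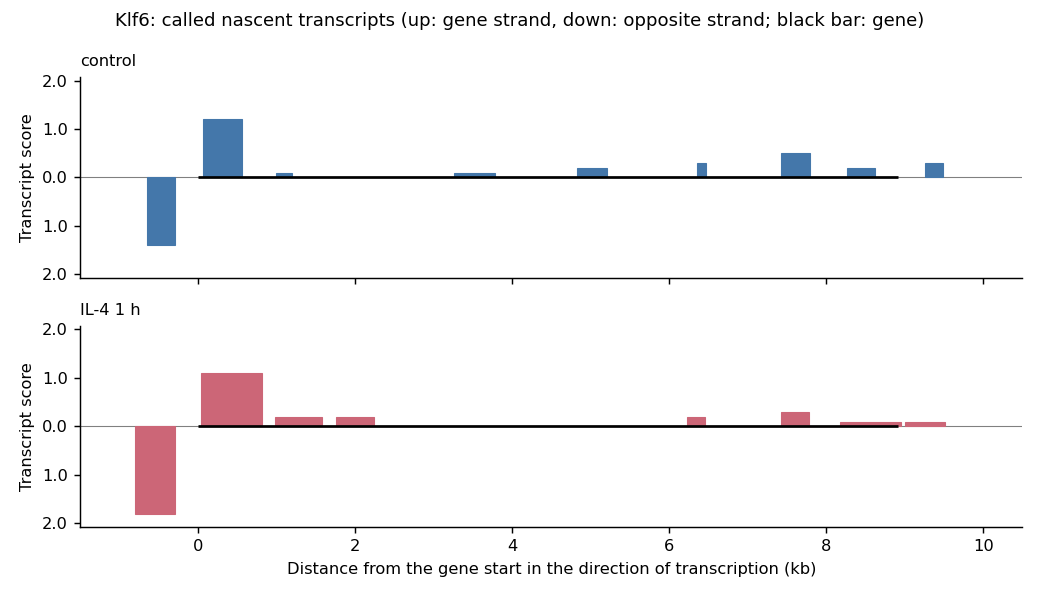
GRO-seq transcripts around Klf6, with distance from the gene start in kb on the x axis and the score in its deposited units on the y axis, upward for the strand of the gene and downward for the opposite strand, in the control and IL-4 libraries. Both libraries have own-strand transcripts along Klf6, with first scores of 1.2 and 1.1, and the opposite-strand promoter transcript scored 1.4 in the control and 1.8 after IL-4.

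Klf2 (ENSMUSG00000055148.7) encodes a zinc-finger factor known for quiescence in T cells and for restraint of inflammatory genes in macrophages. It spans 2624 bp on the plus strand of chromosome 8, 72319033–72321656. One own-strand transcript was called in each library, with a score of 0.8 at 72319075–72319649 in the control and 0.7 at 72319073–72319544 after IL-4. The signal was 460 (rounding range 431 to 489) in the control and 330.4 (306.8 to 354) in treated cells, which gives a centred log2 ratio of −0.60 (−0.79 to −0.40). This was below the 2-fold limit. The signal beyond the first 500 bp was 93.6 in the control and 8.4 after IL-4, over 117 and 12 bp, so that value rests on where a single transcript was ended.

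The name Klf2 was also carried by a plus-strand transcript that began at −23130 bp in the control and −23111 bp after IL-4, with a score of 0.4 in the control and 0.2 after IL-4. A further 3 minus-strand transcripts with scores of 0.3 or 0.4 carried it in the control only. They lie in introns of Eps15l1, on the strand of that gene, and were assigned to Klf2 by distance. In all, 5 transcripts carried the name Klf2 in the control and 2 after IL-4.

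Klf4 (ENSMUSG00000003032.8), a zinc-finger factor linked with STAT6 in alternative macrophage activation, lies on the minus strand of chromosome 4, 55527143–55532466. Neither library had an own-strand transcript in its 5324 bp. The one feature in both was the opposite-strand promoter transcript, with a score of 0.3 at 55532726–55532917 in the control and 0.4 at 55532721–55532929 after IL-4. The log2 ratio of this transcript was 0.42, with a rounding range of 0 to 0.85 and a median of 0 over the genes with such a transcript in both libraries. After IL-4, a plus-strand transcript with a score of 0.1 at 55651538–55651837 also carried the name Klf4, in an intergenic CpG island, with its 5′ end at −119072 bp from the gene start.

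Bhlhe40 (ENSMUSG00000030103.11), a repressor of the circadian clock that also represses Il10 in T cells, lies on the plus strand of chromosome 6, 108660629–108666925. It had no transcript in the control and 1 after IL-4, on the minus strand at 108660283–108660517, with a score of 0.1. That transcript lies inside 0610040F04Rik, an annotated minus-strand gene at 108577039–108660934, and could belong to it. No own-strand transcript was called for Bhlhe40 in either library, so these files hold no measured response of the gene.

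Levels were compared between genes as own-strand signal per base of gene. After IL-4, Klf6 was at 0.145 (rounding range 0.127 to 0.162), Nfil3 at 0.138 (0.119 to 0.158), Klf2 at 0.126 (0.117 to 0.135), Batf3 at 0.0780 (0.0557 to 0.1004) and Myc at 0.0633 (0.0489 to 0.0776). Klf6, Nfil3 and Klf2 overlapped within rounding, as did Batf3 and Myc, while the ranges of the first 3 lay above those of the other 2. In the control, Klf2 at 0.175 (0.164 to 0.186) was above Klf6 at 0.116 (0.102 to 0.129), and the other 5 were listed at 0. The level of Nfil3 after IL-4 exceeded that of 95.9% of genes with a signal in that library, Batf3 91.9% and Myc 89.8%. Nfil3 thus had no own-strand call in the control and a level after IL-4 within the rounding range of Klf6, which was called in both libraries.

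By the highest score under each gene name, on either strand, 5 factors had a value in both libraries. Ratios were centred on the median of 8879 genes, which moved all log2 values up by 0.38. At least 2-fold higher after IL-4 was 1 of the 5, Nfil3, and none was at least 2-fold lower, beside 8.06% and 8.62% of all genes. For Nfil3 the scores were 0.3 and 1.2 (log2 ratio 2.38, rounding range 2.09 to 2.70). The other ratios were 0.79 for Klf4 (0.38 to 1.23), 0.74 for Klf6 (0.65 to 0.83), 0.46 for Batf3 (0.38 to 0.54) and 0.19 for Klf2 (−0.01 to 0.38). The median of the 5 was 0.74, with the median of all genes at 0 by centring. These values do not all measure the genes themselves. For Nfil3, Klf4 and Klf6 the highest score came from the opposite-strand promoter transcript, for Batf3 from the ribosomal RNA repeat, and for Klf2 from the gene.

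**Figure D3:**
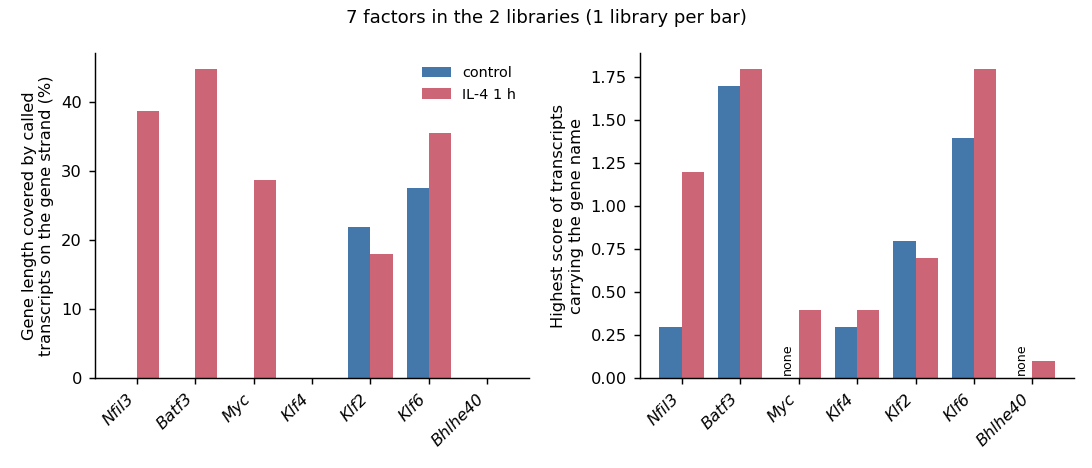
Values of the 7 factors in the control and IL-4 libraries (1 library each): the left panel gives the share of the gene covered by own-strand transcripts (%), the right panel the highest score under each gene name, with bars from 0. Nfil3, Batf3 and Myc have covered bases after IL-4 only (38.6%, 44.7% and 28.7%), Klf2 and Klf6 in both libraries, and Klf4 and Bhlhe40 in neither.

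By gene-strand signal, 2 factors had a value in both libraries, Klf2 and Klf6, and neither passed 2-fold. Of 7196 genes, 16.6% were at least 2-fold higher and 16.9% at least 2-fold lower. The opposite-strand transcripts at the gene start were compared for 4 factors. For Nfil3, Klf4 and Klf6 these are the transcripts that gave the highest score. For these genes only the centring differs from the highest-score measure, so this is no second view. Nfil3 had a log2 ratio of 2 (rounding range 1.72 to 2.32), Batf3 0.58 (0 to 1.22), Klf4 0.42 (0 to 0.85) and Klf6 0.36 (0.27 to 0.45). Nfil3 alone was at least 2-fold higher, where 9.95% of 2442 genes were at least 2-fold higher and 16.4% at least 2-fold lower.

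Relatives of the factors were followed in 5 lists of 60 genes in all. By highest score, 36 had a value in both libraries, of which 1 was at least 2-fold higher and 4 at least 2-fold lower, beside 8.06% and 8.62% of all genes, with a median log2 ratio of −0.08. By gene-strand signal, 2 of 36 were at least 2-fold higher and 14 at least 2-fold lower, beside 16.6% and 16.9% of all genes, with a median of −0.48 against 0 for all genes after centring. Irf4 was the one relative with own-strand transcripts after IL-4 only (5 transcripts, signal 649), and Cry1, a clock repressor, the one in the control only. On either strand, the highest score under the name Irf4 was 1.7 in the control and 1.2 after IL-4 (log2 ratio −0.12). No own-strand transcript was called in either library for 22 of the 60.

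In the KLF and SP family, none of 9 genes with both values passed 2-fold by highest score, and 10 of 18 had no own-strand transcript in either library. Sp1, a general GC box factor, had scores of 0.8 and 0.9 (log2 ratio 0.55), Klf16 0.2 and 0.3 (0.96) and Klf5 0.4 and 0.2 (−0.62). By gene-strand signal, 1 of 8 was at least 2-fold higher (16.6% of all genes) and 3 at least 2-fold lower (16.9%). The family thus showed no common direction.

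Among the BATF and JDP genes and their JUN and IRF partners, 1 of 7 was at least 2-fold higher by highest score (8.06% of all genes). Batf, the closest relative of Batf3, had scores of 0.5 and 0.8 (1.06, rounding range 0.83 to 1.30), but its gene-strand signal was 94.4 in the control and 38.1 after IL-4 (−1.43), the opposite direction. Jun had scores of 0.6 and 0.6, and Irf8, a macrophage lineage factor, 1.7 and 1.8. In the PAR and CEBP leucine zipper list, whose PAR members are activators at the DNA sites of NFIL3, 1 of 6 was at least 2-fold lower by highest score (8.62% of all genes). Tef had 5 and 1.8 (−1.10, −1.15 to −1.04), Dbp 0.5 and 0.3 (−0.36), and Cebpa, a myeloid lineage factor, 1 and 1.4 (0.86). By gene-strand signal, 2 of 6 in this list were at least 2-fold lower (16.9% of all genes) and none at least 2-fold higher (16.6%). Tef did not pass 2-fold by that measure (−0.80).

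In the MYC network, 2 of 9 genes were at least 2-fold lower by highest score (8.62% of all genes), and 4 of 8 by gene-strand signal (16.9% of all genes). Mxi1 had scores of 0.5 and 0.1 (−1.94, rounding range −3.08 to −1.21) and Mnt 0.8 and 0.3 (−1.04, −1.39 to −0.72). Both encode repressors that share the partner MAX with MYC, and the third gene named, Mga, had 0.4 and 0.2 (−0.62). Mxd4, another MAX partner, tied with Mga.

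In the circadian list, 1 of 5 was at least 2-fold lower by highest score (8.62% of all genes), and 4 of 8 by gene-strand signal (16.9%), with 1 higher (16.6%). Bhlhe41, the paralog of Bhlhe40, had scores of 0.3 and 0.1 (−1.21, −2.43 to −0.36) and a signal log2 ratio of −3.04. Arntl, which encodes the clock activator BMAL1, had 0.9 and 0.4 (−0.79) with a signal ratio of −2.90, and Nr1d2, a clock repressor, 1.7 and 1.1 (−0.25) with −1.12. All 3 were lower by both measures.

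**Figure D4:**
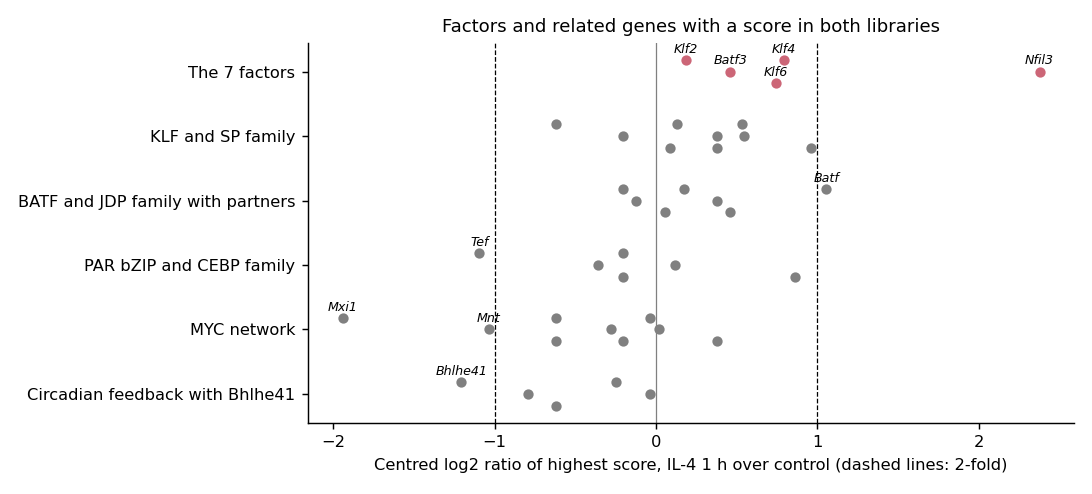
Centred log2 ratios (IL-4 over control) of the highest score for the 5 factors and the 36 relatives with a value in both libraries, grouped by list, 1 point per gene from 1 library per condition. Nfil3 stands highest at 2.38, and of the relatives Batf lies above the 2-fold line and Tef, Mxi1, Mnt and Bhlhe41 below it.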

How the data were processed

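GRO-seq was performed on control and IL-4-treated (1 hr) BMDMs. The authors pooled run-on duplicates, aligned reads to mm10 with BWA 0.7.10, handled alignments with SAMtools 0.1.19 and called transcripts with HOMER 4.2 in its GRO-seq mode, and the deposited gene names follow the nearest gene start (tool versions from the submitters' processing notes). The deposited value is the HOMER score of each transcript, written to 1 decimal, whose scaling is not given in the sources used here. Neither counts nor depth are given, so no interval for counting error could be set.

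Transcripts were assigned to factors by the deposited gene name and placed by strand against GENCODE M21 (Python 3.11.15, pandas 2.3.3). Gene-strand signal is score times overlapped bases on the strand of the gene, with an overlap of at least 1 bp. Log2 ratios were centred on the median gene, and "at least 2-fold" refers to centred values. Rounding ranges move each score by 0.05. Opposite-strand transcripts counted at a gene start had their 5′ end within 1000 bp, and their ratios have a median of 0. Calculations were tested on simulated data. For the ratios, these data started from control scores of 1 or more, so low scores and missing calls were not covered. Per list, the 3 relatives named had the largest absolute centred ratio by highest score, if either library had 0.3 or more, with ties broken alphabetically. The factors, lists and thresholds were chosen with earlier results of these data known. Promoter sequences are from RefSeq.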

Additional observations from a re-analysis of the deposited data

How the results depend on the processing

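With 1 library per condition, scores of 1 decimal and unknown depth, low factors such as Myc or Bhlhe40 rest on a few calls, and missing transcripts are not evidence of silence. No paired analysis was possible because each condition has 1 library, and leaving out a replicate was not possible for the same reason. Of 30 recomputed counts of factors, 22 stayed within 1.5 times the main count and 8 moved. At least 2-fold higher by highest score was 1 factor (Nfil3). The sum of the scores gave 3 (Nfil3, Batf3 and Klf4, beside 13.6% of all genes), where Klf4 passed through the distant transcript at −119072 bp. Own-strand transcripts alone gave 0 of the 3 factors with a value (12.5% of all genes). These were Batf3, through the ribosomal RNA repeat, Klf2 and Klf6, while Nfil3 and Myc had no own-strand transcript in the control. Missing values set to 0.1 gave 2 (Nfil3 and Myc, beside 13.1%), where Myc had no control value and passed through the value set for it. Leaving out ribosomal RNA elements, an alternative chosen after seeing the data, gave 2 (Nfil3 and Batf3, beside 12.3%), with Batf3 at a log2 ratio of 1.42. There Batf3 passed through the plus-strand transcript at −12137 bp, with a score of 0.4 after IL-4, which could belong to Nsl1. Own-strand transcripts inside Batf3 scored 0.1 or 0.2 after IL-4. At least 2-fold lower by highest score was none, and the sum of the scores gave 1 (Klf2, beside 13.7%). By gene-strand signal, none was at least 2-fold higher. A floor of 3.6 added to both signals gave 3 (Nfil3, Batf3 and Myc, beside 23.8% of all genes). Each of these had a control signal of 0, so passing follows from the floor and measures no fold change. Opposite-strand transcripts at the gene start, also chosen after seeing the data, gave 1 (Nfil3, beside 9.95%), through the same transcript as by highest score. At least 2-fold lower by signal was none, and leaving out the first 500 bases gave 1 (Klf2, log2 ratio −3.57, beside 19.1%). Of 50 recomputed ratios of single factors, 35 stayed within the rounding range and 15 moved. Klf2 by highest score was 0.19 and became −0.19 without centring or with the transcript nearest the start, and −1.06 with the sum. Klf6 was 0.74 and became −0.13 with the transcript nearest the start. The cause of these shifts was not tested beyond the construction of each alternative.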

Other observations

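Of 7 protein-coding genes within 60000 bp of a factor, 4 had a gene-strand signal in both libraries. Auh and Nsl1 were at least 2-fold higher after IL-4, a level that 16.6% of all genes reached, and Tatdn3 and Eps15l1 did not pass 2-fold. Auh, which encodes an enzyme of leucine breakdown, lies 37528 bp from Nfil3 on the same strand. It had 5 own-strand transcripts with a signal of 280 in the control and 40 with a signal of 2736.5 after IL-4, which gives a log2 ratio of 3.17 after centring. Its highest score was 0.3 and 0.7 (log2 ratio 1.60). Next to Batf3, Nsl1, which encodes a kinetochore protein and lies 11373 bp away, had 1 own-strand transcript in each library with signals of 39.8 and 301 (2.80). In both libraries this is the plus-strand transcript described upstream of Batf3, of 199 bp in the control and 753 bp after IL-4. The Nsl1 signal is thus no separate observation from that transcript. Eps15l1, an endocytosis gene 19343 bp from Klf2, had 11 and 8 own-strand transcripts (−0.64). Tatdn3, 34915 bp from Batf3, had signals of 98.2 and 58.4 (−0.87). Fam71a had no own-strand transcript and a highest score of 0.4 in both libraries, and Spata45 and Gm10282 had no transcript in either. Pvt1, a non-coding RNA gene that begins 47612 bp past Myc, had no own-strand transcript in the control and 4 after IL-4, with a highest score of 0.4. Each value comes from 1 library per condition.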
